A study of Mus musculus with 24 samples.

Results

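The Dppa genes are named for their expression in the pluripotent cells of the early mouse embryo, and 4 of them are described here, Dppa2, Dppa3 (also called Stella), Dppa4 and Dppa5a. They were taken by symbol alone, from the first line that carries each symbol in the deposited count tables, and they are 4 of 22926 gene symbols. Poly(A) RNA was sequenced from mouse embryonic stem cells (ESCs) that carried WT Tet genes or deletions of Tet1 (Tet1-/-), of Tet2 (Tet2-/-), of Tet1 and Tet2 (DKO) or of Tet1, Tet2 and Tet3 (TKO), before (D0) and 6 days after (D6) withdrawal of the cytokine LIF. Each day held 3 libraries of WT, 3 of Tet1-/- and 2 of each remaining genotype, each from a separately isolated clone. The 24 libraries came from 13 clones, of which 11 were sequenced on both days, and clones carry the submitters' clone names without the day, the WT prefix and the replicate numbers that some labels add (DKO_5.12 is written DKO_512 at D6).

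All clones, the WT included, descended from a single 129/SVj-derived ESC line that carries an Oct4:IRES:eGFP reporter and grows without feeder cells on gelatin. The deletions were Cas9-induced insertions and deletions made by transient transfection, small in most alleles that were sequenced. Only a single allele was found for Tet2 in both Tet2-/- clones and for Tet3 in both TKO clones. There the paper does not exclude a large change on the other allele. Clones of that line were the replicates, so the spread between them is a spread between clones and not between independently derived lines. The D0 and D6 libraries were also deposited in separate tables, so that a difference between days in handling and the change with LIF withdrawal cannot be told apart.

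Dppa2 and Dppa4 encode paired nuclear proteins with a SAP domain that bind DNA together, keep developmental promoters in ESCs free of DNA methylation and activate the genes of a state resembling the early cleavage embryo. Dppa3 encodes a small protein of oocytes, zygotes, germ cells and a part of the naive ESC population that holds back the methylation cofactor Uhrf1 and shields the maternal genome from oxidation by Tet3. Dppa5a encodes an RNA-binding protein with a KH domain found in ESCs, early embryos and germ cells, and the Tet enzymes oxidise methylated cytosine, the first step of its removal.

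Totals ranged from 18400463 to 37290208 counts per library. The ESC markers Pou5f1, Sox2, Nanog and Zfp42 were high in every D0 library, with a lowest value of 468 CPM (counts scaled to a common library total) for Zfp42, and their sum lay between 592 and 1721 CPM at D6. Small insertions and deletions need not remove a transcript, and the targeted genes were still read: Tet1 lay between 93.4 and 358 CPM in Tet1-/- clones at D0 against 220 to 431 CPM in WT, Tet2 between 20.9 and 23.2 CPM in Tet2-/- clones against 87.9 to 94.0 CPM, and Tet3 between 2.84 and 4.43 CPM in TKO clones against 5.05 to 7.94 CPM. In the multiple knockouts at D0, Tet1 lay at 373 and 231 CPM in DKO clones DKO_5.11 and DKO_5.12 and at 568 and 41.7 CPM in TKO clones TKO_8.4 and TKO_8.12, and Tet2 at 55.7 and 22.3 CPM and at 42.5 and 8.16 CPM in the same clone order. At D6, Tet2 lay between 15.9 and 16.6 CPM in Tet2-/- clones, beside 12.3 to 16 CPM in WT.

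In the mm9 assembly with GENCODE annotation, Dppa4 (chr16:48283848-48294405) and Dppa2 (chr16:48310590-48319836) lie head to tail on the plus strand, 16.2 kb apart, and each has 7 exons in its longest transcript. Dppa3 (chr6:122576428-122580290, plus strand, 4 exons) lies between Gdf3, 16.3 kb away, and Nanog, 77.2 kb away. Dppa5a (chr9:78214859-78215984, minus strand, 3 exons) lies 7.9 kb from Ooep. Processed copies of Dppa3 and Dppa5a exist elsewhere in the mouse genome, and reads shared with them may have been split or lost in the authors' counting, so the absolute levels of both genes are uncertain.

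Undifferentiated WT cells held far more Dppa5a RNA than RNA of the other members. Per kilobase of the longest transcript, the WT D0 level was 1408 ± 164 CPM for Dppa5a, 46.7 ± 3.69 CPM for Dppa4, 42.9 ± 4.1 CPM for Dppa2 and 1.40 ± 0.70 CPM for Dppa3 (SD, n = 3). Dppa4 and Dppa2 differed by less than the spread between clones on this scale, and the other steps in the order exceeded it. All values that follow are CPM without division by length, scaled by the trimmed mean of M values (TMM) over the 24 libraries.

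Dppa2 and Dppa5a were lower at D6 than at D0 in all 11 clones sequenced on both days, and Dppa3 was higher in all 11. Dppa4 was lower in every clone outside Tet2-/-, and in both Tet2-/- clones its log2 ratio was -0.01, a sign that depended on the scaling. The size of the change depended on the clone and the genotype. Per clone, the log2 ratio of D6 over D0 ranged from -4.01 to -0.21 for Dppa2 with a median of -1.61, from -2.40 to -0.01 for Dppa4 with a median of -0.68, from -2.98 to -0.37 for Dppa5a with a median of -0.89, and from 0.13 to 4.47 for Dppa3 with a median of 1.30. RNA was taken from whole cultures, so fewer expressing cells and less RNA per cell cannot be told apart.

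**Figure D1:**
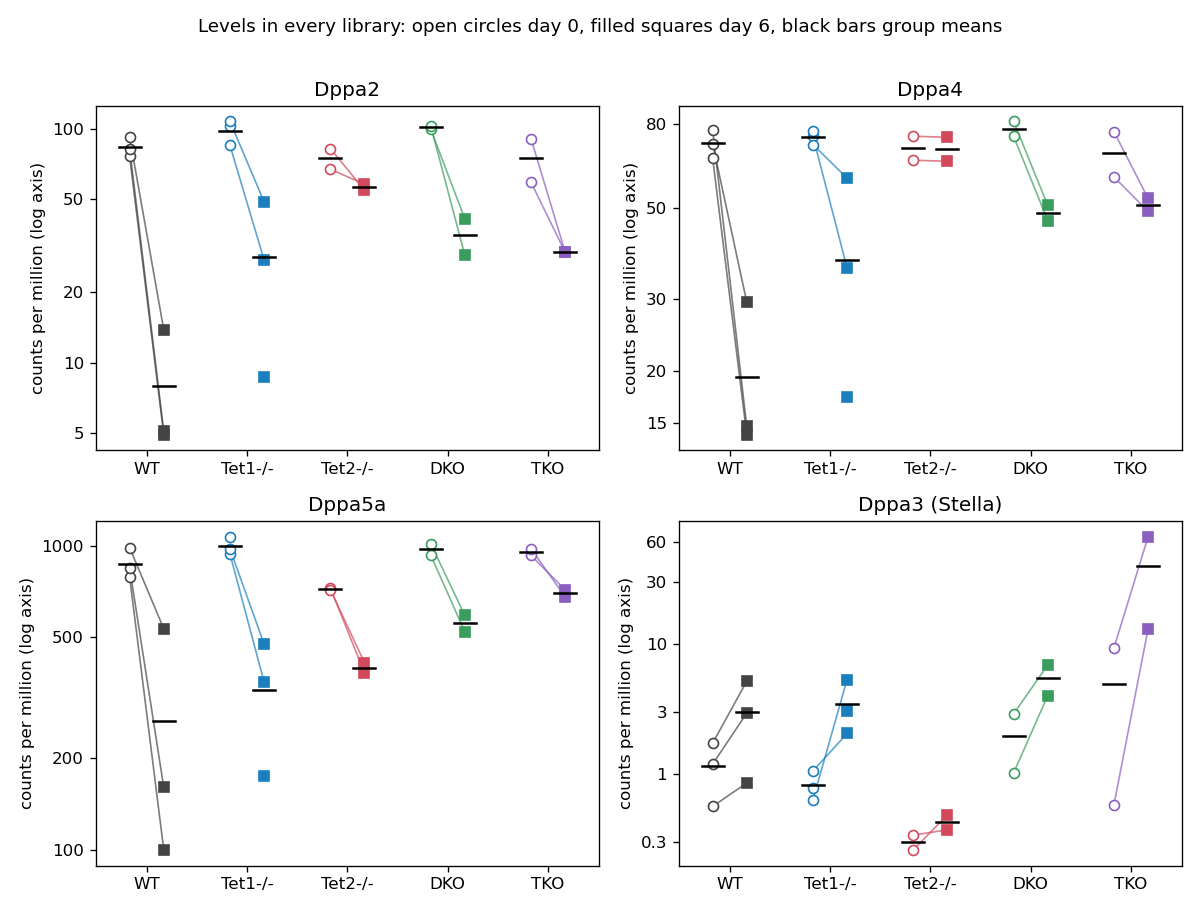
Level of each gene in every library, in CPM on a log axis, by genotype (open circles D0, filled squares D6, lines joining libraries of the same clone, black bars group means). Dppa2, Dppa4 and Dppa5a start within a narrow band at D0 and fan out at D6, with the lowest group means in WT, whereas Dppa3 starts low and is lowest in Tet2-/- and highest in TKO at D6.

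Dppa2 was the member that fell most in WT. It stood at 76.3, 92.1 and 82.1 CPM at D0 in clones O4.1, O4.2 and O4.13, and at 4.94, 13.9 and 5.09 CPM at D6. Every D6 value was below every D0 value, and clone O4.2 kept the most at D6. The fall was -3.38 ± 0.45 on the log2 scale (quasi-likelihood test of edgeR, p adjusted by Benjamini-Hochberg over all genes tested, adjusted p = 2.77e-06; here and below ± after a log2 fold change is its standard error), and the mean D6 level was 9.54% of the mean D0 level.

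In Tet1-/- clones Dppa2 stood at 85.0, 103 and 108 CPM at D0 in clones Tet1_KO_2.1, Tet1_KO_2.3 and Tet1_KO_2.4, and at 27.5, 8.68 and 48.8 CPM at D6 in clones Tet1_KO_2.1, Tet1_KO_2.2 and Tet1_KO_2.4. The groups did not overlap, and the D6 values spread over a wide range, with clone Tet1_KO_2.2 near the WT values. The change was -1.79 ± 0.41 (edgeR adjusted p = 9.14e-04). In DKO it fell from 99.9 and 103 CPM to 41.4 and 28.9 CPM in clones DKO_5.11 and DKO_5.12, a change of -1.53 ± 0.50 (edgeR adjusted p = 0.0138), which missed the threshold without clone DKO_5.12 at D0 (adjusted p = 0.0525) or without clone DKO_5.12 at D6 (adjusted p = 0.113).

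In TKO Dppa2 fell from 59.2 and 90.9 CPM in clones TKO_8.4 and TKO_8.12 to 29.7 and 29.8 CPM, a change of -1.33 ± 0.50 (edgeR adjusted p = 0.0324). The clones differed at D0 and met at D6. This call was lost without either D6 library (adjusted p = 0.117 without clone TKO_8.12, 0.103 without clone TKO_8.4), without clone TKO_8.12 at D0 (-0.997, adjusted p = 0.177), without both libraries of clone TKO_8.12 (-0.97, adjusted p = 0.311) and with library totals in place of TMM (-1.15, adjusted p = 0.0587). In Tet2-/- the values were 67.3 and 82.5 CPM at D0 and 58.1 and 54.8 CPM at D6 in clones Tet2_KO_3.10 and Tet2_KO_3.11. These groups did not overlap either, but the change of -0.41 ± 0.49 did not pass (edgeR adjusted p = 0.532, 95% interval -1.43 to 0.61), and the mean D6 level was 75.3% of the mean D0 level.

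Dppa4 kept more of its D0 level than its partner in every genotype. In WT it stood at 66.1, 71.6 and 77.4 CPM at D0 in clones O4.1, O4.2 and O4.13 and at 14.0, 29.5 and 14.7 CPM at D6, with no overlap. That fall of -1.88 ± 0.31 was called (edgeR adjusted p = 2.92e-05). In Tet1-/- it stood at 74.5, 77.0 and 71.2 CPM at D0 and at 35.7, 17.3 and 59.0 CPM at D6, in the same clone order as above. Its change of -0.99 ± 0.30 passed the adjusted p (edgeR, 0.0070) but fell just short of the required 2-fold change, and it reached it without clone Tet1_KO_2.4 at D6 (-1.48) or at D0 (-1.02). Without clone Tet1_KO_2.2 at D6 it was -0.60 (adjusted p = 0.0400).

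In DKO Dppa4 went from 81.1 and 74.6 CPM to 50.6 and 46.5 CPM (-0.68 ± 0.36, edgeR adjusted p = 0.115), and in TKO from 59.4 and 76.5 CPM to 49.0 and 52.7 CPM in clones TKO_8.4 and TKO_8.12 (-0.42 ± 0.36, edgeR adjusted p = 0.343). Clone Tet2_KO_3.10 went from 65.2 to 64.8 CPM and clone Tet2_KO_3.11 from 74.6 to 74.2 CPM. Both Tet2-/- clones thus kept 99.4% of their own D0 level, and the fitted change was -0.01 ± 0.36 with a 95% interval of -0.76 to 0.74 (edgeR adjusted p = 0.985). Its sign depended on the scaling, as it was 0.13 with library totals.

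Dppa5a fell in WT to a level that depended on the clone. It stood at 787, 985 and 843 CPM at D0 in clones O4.1, O4.2 and O4.13 and at 99.9, 533 and 160.2 CPM at D6. Clone O4.2 kept 54.1% of its D0 level, against 12.7% in O4.1 and 19% in O4.13. The fall was called in WT (-1.72 ± 0.40, edgeR adjusted p = 0.00105), and was -2.74 without clone O4.2 at D6 and -1.32 without clone O4.1 at D6.

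In Tet1-/- Dppa5a was 939, 1069.6 and 975.2 CPM at D0 and 356, 175 and 475 CPM at D6, and this fall was called too (-1.57 ± 0.40, edgeR adjusted p = 0.00233). In Tet2-/- it went from 727 and 717 CPM to 381 and 412 CPM, in DKO from 932 and 1016 CPM to 521 and 589.6 CPM, and in TKO from 928 and 977 CPM to 716 and 678 CPM in clones TKO_8.4 and TKO_8.12. The D0 and D6 values did not overlap in any genotype. The changes in Tet2-/- (-0.86 ± 0.48), DKO (-0.81 ± 0.48) and TKO (-0.45 ± 0.48) did not pass (edgeR adjusted p = 0.165, 0.162 and 0.452).

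Dppa3 moved the other way and from a level near the detection limit, which was 3 counts or 0.080 to 0.163 CPM depending on the library. In WT it stood at 0.57, 1.19 and 1.73 CPM at D0 (14, 29 and 40 counts) in clones O4.1, O4.2 and O4.13 and at 0.86, 2.94 and 5.16 CPM at D6 (17, 81 and 162 counts). The groups overlapped, the clones kept their order, and the change of 1.39 ± 0.79 did not pass (edgeR adjusted p = 0.127). With the clone as a block it was 1.27 and was called (adjusted p = 0.0161, beside 20.7% of all genes higher), as it was without both libraries of clone TKO_8.12 (1.40, adjusted p = 0.0294). It was 0.77 without clone O4.13 at D6 (adjusted p = 0.460) and 1.82 without clone O4.1 at D6 (adjusted p = 0.0567).

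In Tet1-/- Dppa3 rose from 0.64, 0.78 and 1.06 CPM to 5.31, 3.07 and 2.05 CPM (D0 clones Tet1_KO_2.1, Tet1_KO_2.3 and Tet1_KO_2.4; D6 clones Tet1_KO_2.1, Tet1_KO_2.2 and Tet1_KO_2.4), with no overlap. The rise of 2.08 ± 0.82 was called (edgeR adjusted p = 0.0327). It missed the threshold without clone Tet1_KO_2.1 at D0 (adjusted p = 0.0952), Tet1_KO_2.3 at D0 (0.0804), Tet1_KO_2.4 at D0 (0.0553) or Tet1_KO_2.1 at D6 (0.116). In DKO it went from 1.02 and 2.90 CPM to 4.01 and 6.87 CPM in clones DKO_5.11 and DKO_5.12, a change of 1.48 ± 0.92 (edgeR adjusted p = 0.177) that was called with the clone as a block (1.56, adjusted p = 0.0112, beside 18.7% of all genes higher), with only the DKO libraries in the fit (1.54, adjusted p = 0.0123) and without both libraries of clone TKO_8.12 (1.51, adjusted p = 0.0473). The DKO change was 0.93 without clone DKO_5.11 at D0 (adjusted p = 0.524) and 2.44 without clone DKO_5.12 at D0 (adjusted p = 0.132).

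In TKO Dppa3 rose in both clones. Clone TKO_8.4 went from 0.58 CPM (14 counts) to 13.0 CPM (422 counts), 22.2-fold, and clone TKO_8.12 from 9.31 CPM (226 counts) to 66.2 CPM (1325 counts), 7.10-fold. The rise of 2.99 ± 0.89 was called (edgeR adjusted p = 0.00945), but not when clone TKO_8.4 was left out at D0 (2.08, adjusted p = 0.0628), when clone TKO_8.12 was left out at D6 (1.41, adjusted p = 0.238) or when the 4 TKO libraries were fitted alone (adjusted p = 0.118). In Tet2-/- Dppa3 stayed at the bottom of the range, at 0.34 and 0.26 CPM at D0 (8 and 9 counts) and 0.37 and 0.49 CPM at D6 (13 and 14 counts) in clones Tet2_KO_3.10 and Tet2_KO_3.11. That change was 0.52 ± 1.33 (edgeR adjusted p = 0.780).

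Counted over members, 3 of 4 fell and none rose past both thresholds in WT, where 13.3% of all genes tested fell and 20.7% rose. In Tet1-/- 2 fell and 1 rose (background 11.2% and 19.9%), in DKO 1 fell (10.6%), and in TKO 1 fell and 1 rose (8.63% and 16.8%). In Tet2-/- no member was called, beside 19.1% of all genes called in either direction and none of the 4 members at an unadjusted p under 0.05. To be called, a gene needed an adjusted p below 0.05 with a difference exceeding 2-fold.

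**Figure D2:**
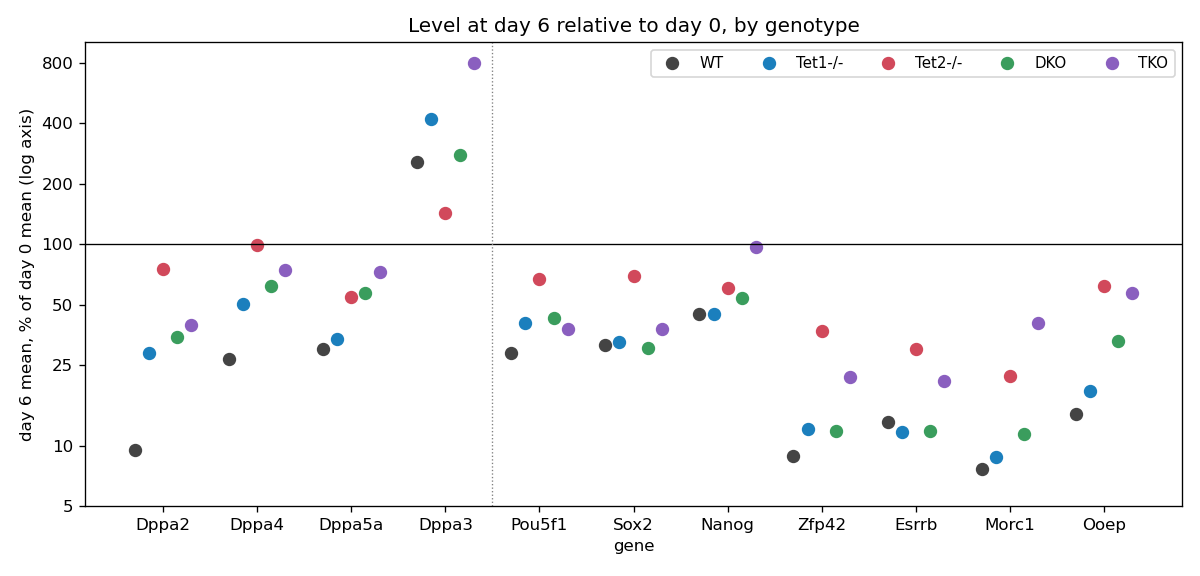
Mean D6 level as a percentage of the mean D0 level, on a log axis, for the 4 members (left of the dotted line) and for 7 other ESC-expressed genes, with the colour giving the genotype. WT retained 9.54% of Dppa2, 27.0% of Dppa4 and 30.3% of Dppa5a, whereas Tet2-/- retained 75.3%, 99.4% and 55.0%; Dppa3 lies above 100% in every genotype.

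At D0 Dppa2, Dppa4 and Dppa5a lay close to WT in every knockout. No member was called in any of the 16 comparisons with WT, where the share of all genes called was 0.00692% for Tet1-/-, 0.0346% for DKO, 3.15% for TKO and 3.19% for Tet2-/-. For Dppa2, Dppa4 and Dppa5a the fitted differences from WT lay between -0.29 and 0.27 on the log2 scale, and the widest of their 95% intervals reached -0.54 and 0.63, so that a 2-fold difference lay outside every one of them. The closest to a call among them was Dppa5a in Tet2-/-, at 727 and 717 CPM against 787 to 985 CPM in WT (-0.29 ± 0.10, edgeR adjusted p = 0.0896).

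Against the other knockouts at D0, Dppa5a in Tet2-/- was lower than in Tet1-/- (-0.46 ± 0.10, edgeR adjusted p = 0.0123), DKO (-0.44 ± 0.11, edgeR adjusted p = 0.0227) and TKO (-0.42 ± 0.11, edgeR adjusted p = 0.0380). In these 3 comparisons 6.19%, 6.36% and 4.19% of all genes were called, and no library of Tet2-/- overlapped those of any other genotype. These differences passed the adjusted p and lay below 2-fold.

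Dppa3 at D0 was more variable. The Tet2-/- values of 0.34 and 0.26 CPM were the lowest of the 12 libraries, and clone TKO_8.12 at 9.31 CPM was the highest, with the other libraries between 0.57 and 2.90 CPM. In that TKO_8.12 library the 5 primitive endoderm markers summed to 21.1 CPM, among them Gata6 at 4.29 CPM and Dab2 at 8.57 CPM, against sums of 5.85 to 7.46 CPM in the other 11 D0 libraries, and their part in its Dppa3 level was not tested. Against WT the difference was -1.96 ± 1.05 in Tet2-/- (edgeR adjusted p = 0.233) and 2.09 ± 0.77 in TKO (edgeR adjusted p = 0.110). The Tet2-/- difference from WT passed without either TKO library (adjusted p = 0.0197 without clone TKO_8.4, 0.0209 without clone TKO_8.12) and with the WT and Tet2-/- libraries alone (adjusted p = 0.0243). The TKO difference was 3.00 (adjusted p = 1.90e-04) without clone TKO_8.4 and turned to -0.98 without clone TKO_8.12 (adjusted p = 0.337), so 1 clone set its direction.

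Dppa3 was called lower in Tet2-/- than in TKO at D0 (-4.05 ± 1.03, edgeR adjusted p = 0.0304), where 2.08% of all genes were called lower. The call was lost without clone TKO_8.12 (-0.99, adjusted p = 0.492), without clone Tet2_KO_3.10 (adjusted p = 0.156) or Tet2_KO_3.11 (adjusted p = 0.183), and with only these 2 groups in the fit (adjusted p = 0.330). Against DKO the difference of -2.70 ± 1.08 did not pass (edgeR adjusted p = 0.0926), though it passed without clone TKO_8.4 (adjusted p = 0.00263) or TKO_8.12 (adjusted p = 0.00291). It also passed with only the DKO and Tet2-/- libraries in the fit (adjusted p = 0.00140) and with the replicate number as a block (0.0452), and was -1.77 without clone DKO_5.12 (adjusted p = 0.413). Against Tet1-/- it was -1.45 ± 1.08 (edgeR adjusted p = 0.359), which passed with only these 2 groups in the fit (adjusted p = 0.0149).

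**Figure D3:**
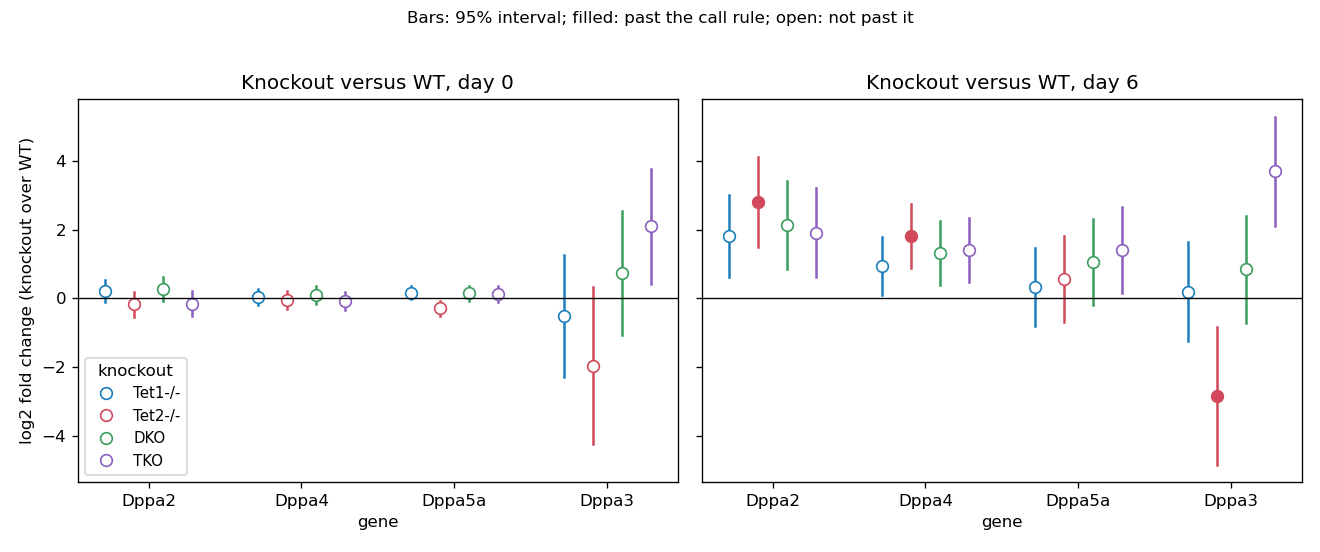
Log2 fold change of each member in each knockout over WT at D0 and at D6, with 95% intervals, in which a filled point marks an adjusted p under 0.05 together with a change of over 2-fold. The D0 points of Dppa2, Dppa4 and Dppa5a sit near 0 with short intervals, and at D6 the Tet2-/- points of Dppa2 and Dppa4 lie above and that of Dppa3 lies below 0.

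At D6, Dppa2 and Dppa4 RNA was higher and Dppa3 RNA lower in Tet2-/- than in WT. Of the 4 members 2 were called higher, beside 4.81% of all genes, and 1 lower, beside 9.45%. Dppa2 stood at 58.1 and 54.8 CPM in Tet2-/- against 4.94, 13.9 and 5.09 CPM in WT, a difference of 2.80 ± 0.59 (edgeR adjusted p = 0.00977). Dppa4 stood at 64.8 and 74.2 CPM against 14.0, 29.5 and 14.7 CPM, a difference of 1.82 ± 0.42 (edgeR adjusted p = 0.0128). The groups did not overlap for either gene. Each call rested on both Tet2-/- clones: with 1 of them left out the lone library was assumed to vary like the other groups, and the difference was 2.75 to 2.84 for Dppa2 (adjusted p = 0.0619 without clone Tet2_KO_3.10, 0.0745 without Tet2_KO_3.11) and 1.72 to 1.91 for Dppa4 (adjusted p = 0.0657 and 0.0940).

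In the other knockouts the D6 means of these 2 genes also lay above WT, by differences that were not called. For Dppa2 the difference was 1.82 ± 0.55 in Tet1-/-, 2.13 ± 0.59 in DKO and 1.90 ± 0.59 in TKO (edgeR adjusted p = 0.322, 0.204 and 0.102). For Dppa4 it was 0.94 ± 0.39, 1.32 ± 0.42 and 1.40 ± 0.42 (edgeR adjusted p = 0.370, 0.231 and 0.0968). DKO and TKO did not overlap WT for either gene, whereas Tet1-/- did through clone Tet1_KO_2.2. No gene at all was called in these 3 comparisons (background 0% each, with 397, 796 and 1003 genes over 2-fold at an unadjusted p under 0.05 in Tet1-/-, DKO and TKO). In TKO Dppa4 was called by DESeq2 (1.40, adjusted p = 0.0166). Both genes were called in TKO without WT clone O4.2 (2.59 for Dppa2 and 1.84 for Dppa4, edgeR adjusted p = 0.0286 and 0.0269) or without clone Tet1_KO_2.2 (1.90 and 1.40, edgeR adjusted p = 0.0420 and 0.0424).

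Tet2-/- did not differ detectably from the other knockouts in Dppa2 or Dppa4 at D6. The Dppa2 difference was 0.98 ± 0.57 from Tet1-/-, 0.66 ± 0.64 from DKO and 0.89 ± 0.64 from TKO (edgeR adjusted p = 0.280, 0.499 and 0.343), with 95% intervals reaching from -0.74 to 2.3 over the 3 comparisons. The Dppa4 difference was 0.88 ± 0.42, 0.50 ± 0.46 and 0.42 ± 0.46 (edgeR adjusted p = 0.190, 0.488 and 0.546), and the first was called without clone Tet1_KO_2.4 (1.37, adjusted p = 0.0323). In the values themselves, both Tet2-/- libraries lay above all other D6 libraries for both genes, the next being clone Tet1_KO_2.4 at 48.8 CPM of Dppa2 and 59.0 CPM of Dppa4.

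Dppa5a at D6 followed another order. Its mean was 264 ± 235 CPM in WT, 335 ± 151 CPM in Tet1-/- (SD, n = 3 each), 397 ± 21.9 CPM in Tet2-/-, 555 ± 48.5 CPM in DKO and 697 ± 26.7 CPM in TKO (SD, n = 2 each). The TKO clones lay above all other D6 libraries and the DKO clones overlapped WT through clone O4.2 alone. None of the differences from WT was called (0.33 ± 0.52, 0.56 ± 0.57, 1.07 ± 0.57 and 1.41 ± 0.57 for Tet1-/-, Tet2-/-, DKO and TKO, with edgeR adjusted p = 0.800, 0.473, 0.411 and 0.171). Without WT clone O4.2 the differences in Tet2-/- (1.60, adjusted p = 0.0117) and TKO (2.44, adjusted p = 0.0138) were called, and without WT clone O4.1 they were 0.20 (adjusted p = 0.798) and 1.02 (adjusted p = 0.341). None of the Tet2-/- differences from the other knockouts in Dppa5a passed (0.23 ± 0.57, -0.50 ± 0.63 and -0.84 ± 0.63, with edgeR adjusted p = 0.827, 0.612 and 0.366 for Tet1-/-, DKO and TKO).

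For Dppa3 the Tet2-/- clones lay at the bottom and the TKO clones at the top of the D6 libraries. The values were 0.37 and 0.49 CPM in Tet2-/-, 0.86, 2.94 and 5.16 CPM in WT, 5.31, 3.07 and 2.05 CPM in Tet1-/-, 4.01 and 6.87 CPM in DKO and 13.0 and 66.2 CPM in TKO. Tet2-/- overlapped no other genotype and neither did TKO. Per kilobase of transcript the TKO mean for Dppa3 was 47.5 ± 45.1 CPM, beside 33.1 ± 1.71 CPM for Dppa4 and 15.3 ± 0.022 CPM for Dppa2 (SD, n = 2), and the spread between the TKO clones covered these differences.

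Dppa3 was called lower in Tet2-/- than in WT at D6 (-2.83 ± 0.91, edgeR adjusted p = 0.0404), than in DKO (-3.68 ± 0.95, edgeR adjusted p = 0.0276) and than in TKO (-6.53 ± 1.01, edgeR adjusted p = 0.00748), beside 6.37% and 6.01% of all genes lower against DKO and TKO. Against Tet1-/- it was -3.03 ± 0.91 (edgeR adjusted p = 0.0586, beside 6.36% of genes called in either direction), and this was called by DESeq2 (adjusted p = 0.00795), without a filter on low counts (0.0364) and without clone Tet1_KO_2.4 (0.0361), WT clone O4.1 (0.0450) or clone TKO_8.4 (0.0297) or TKO_8.12 (0.0301). With the replicate number as a block, the differences from DKO (-3.66, edgeR adjusted p = 0.0510) and WT (-2.66, edgeR adjusted p = 0.0936) missed the threshold. The difference from WT stayed between -3.22 and -2.18 with single libraries left out. It missed the threshold without clone Tet2_KO_3.10 (adjusted p = 0.194) or Tet2_KO_3.11 (0.168), WT clone O4.2 (0.0545) or O4.13 (0.125), or clone DKO_5.11 (0.0528) or DKO_5.12 (0.0523). The difference from DKO missed it without either Tet2-/- clone (adjusted p = 0.163 without Tet2_KO_3.10, 0.161 without Tet2_KO_3.11) or either DKO clone (0.0626 without DKO_5.11, 0.140 without DKO_5.12), and that from TKO without either Tet2-/- clone (0.0671 without Tet2_KO_3.10, 0.0938 without Tet2_KO_3.11).

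The difference of Dppa3 in TKO from WT at D6 was the largest fitted difference of any member from WT, 3.70 ± 0.72 (95% interval 2.12 to 5.29), and its adjusted p of 0.0641 by edgeR did not pass. It passed by DESeq2 (3.74, adjusted p = 0.00104), without a filter on low counts (0.0425) and without WT clone O4.2 (0.0305), clone Tet1_KO_2.2 (0.0396) or Tet1_KO_2.4 (0.0425) or clone TKO_8.4 (4.44, adjusted p = 0.0119), and was 2.12 without clone TKO_8.12 (adjusted p = 0.211). In Tet1-/- and DKO Dppa3 differed from WT by 0.20 ± 0.65 and 0.84 ± 0.71 (edgeR adjusted p = 0.911 and 0.608). The DKO difference ranged from 0.40 to 1.48 with single libraries left out.

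Whether the change from D0 to D6 itself differed from that in WT was tested with an interaction term. Dppa2 fell less in Tet2-/- than in WT, by 2.97 ± 0.65 on the log2 scale (edgeR adjusted p = 0.00805), and so did Dppa4, by 1.87 ± 0.47 (edgeR adjusted p = 0.0141). These 2 of 4 members stand beside 3.54% of all genes called in the positive direction. The Dppa2 term missed the threshold without clone Tet2_KO_3.10 at D0 (2.85, adjusted p = 0.0569), and the Dppa4 term without clone Tet2_KO_3.10 at D0 (1.80, adjusted p = 0.0769) or clone Tet2_KO_3.11 at D6 (1.77, adjusted p = 0.0571). The terms of Dppa5a and Dppa3 in Tet2-/- were 0.86 ± 0.62 and -0.87 ± 1.58 (edgeR adjusted p = 0.354 and 0.741), and that of Dppa5a was called without WT clone O4.2 at D6 (1.88, adjusted p = 0.00306) and was 0.47 without WT clone O4.1 at D6 (adjusted p = 0.582).

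In TKO the interaction terms were 2.05 ± 0.65 for Dppa2, 1.46 ± 0.47 for Dppa4, 1.27 ± 0.62 for Dppa5a and 1.60 ± 1.16 for Dppa3 (edgeR adjusted p = 0.0651, 0.0673, 0.226 and 0.434), none of them called, beside 3.58% of all genes. With the clone as a block, in which each clone is compared with itself, all 4 were called, at 2.23 (adjusted p = 0.00691), 1.56 (0.0135), 1.64 (0.0402) and 2.16 (0.0455), beside 2.73% of all genes called in the positive direction in that fit. The block thus raised the interaction calls from 2 to 6. Without the block, the Dppa2 and Dppa4 terms were called by DESeq2 (adjusted p = 0.0398 and 0.0257) and in edgeR without clone Tet1_KO_2.2 (0.0134 and 0.0151) or Tet1_KO_2.4 (0.0310 and 0.0259) at D6. The Dppa2, Dppa4 and Dppa5a terms were also called without WT clone O4.2 at D6 (2.72, 1.90 and 2.29, with edgeR adjusted p = 0.00879, 0.00885 and 0.00163), and the Dppa3 term without clone TKO_8.12 at D0 (4.66, adjusted p = 0.0270). That Dppa3 term was 0.67 without clone TKO_8.4 at D0 (adjusted p = 0.750) and 0.0092 without clone TKO_8.12 at D6 (adjusted p = 1.00), so single TKO libraries set its size, and the Dppa5a term was 0.88 without WT clone O4.1 at D6. In Tet1-/- and DKO the terms lay between 0.09 and 1.85 over the 4 members (edgeR adjusted p from 0.470 to 0.999), where no gene was called in either genotype (background 0%, with 378 and 575 genes over 2-fold at an unadjusted p under 0.05).

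Markers of the ESC state and of other cell types differed between the same libraries, and their part in these results was not tested. At D6 the sum of the 4 ESC markers was 592, 1252 and 714 CPM in WT clones O4.1, O4.2 and O4.13, so the clone that kept the most Dppa2, Dppa4 and Dppa5a was also the WT clone with the highest marker sum. It was 729 CPM in clone Tet1_KO_2.2, the Tet1-/- clone lowest in these 3 members, against 984 and 1329 CPM in clones Tet1_KO_2.1 and Tet1_KO_2.4. The sum was 1592 and 1721 CPM in Tet2-/-, 1012 and 1016 CPM in DKO and 1245 and 1372 CPM in TKO. The 5 primitive endoderm markers summed to 67.9 to 247 CPM in WT and 18.0 to 20.7 CPM in Tet2-/- at D6, and the 4 fibroblast markers to 98.5 to 377 CPM and 14.4 to 16.8 CPM. Among them Sox7 went the other way, at 0.35 and 0.32 CPM in Tet2-/- against 0.20 to 0.29 CPM in WT. Thy1 lay at 4.64 and 5.41 CPM in Tet2-/-, within the 3.93 to 9.29 CPM of WT. The remaining markers of both lists were lower in both Tet2-/- clones than in every WT clone. The 3 germ cell markers Ddx4, Dazl and Nanos3 summed at D6 to 15.8 to 30.7 CPM in WT, 19 to 48.8 CPM in Tet1-/-, 43.3 to 47.0 CPM in Tet2-/-, 57.8 to 67.1 CPM in DKO and 56.3 to 64.3 CPM in TKO. Most of this sum was Ddx4, at 40.6 and 37.8 CPM in Tet2-/- against 13.2 to 21.3 CPM in WT. Nanos3 was also higher (2.65 and 2.02 CPM against 0.30 to 0.47 CPM). Dazl, at 3.77 and 3.46 CPM, lay within the WT range of 1.41 to 8.97 CPM. All of these markers were above 0 in every D6 library, down to 0.105 CPM for Sox17 and 0.145 CPM for Sox7. The Sox17 value, in clone Tet2_KO_3.11, sat at the detection limit of its library, and Sox7 lay little above the limit.

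The core pluripotency genes gave a scale for these losses. In WT the mean D6 level was 29.0% of D0 for Pou5f1 (Oct4), 31.6% for Sox2 and 45.1% for Nanog, and 9.54% for Dppa2. In Tet2-/- it was 67.6%, 69.9% and 60.6%, beside 75.3% for Dppa2 and 99.4% for Dppa4. Of the 4 core genes Pou5f1, Sox2, Nanog and Sall4, 3 fell in WT and in Tet1-/-, 2 in DKO and in TKO and none in Tet2-/-, with median log2 changes of -1.40, -1.22, -1.05, -0.92 and -0.54 against medians over all genes between -0.01 and 0.01. Shares of all genes called lower were 13.3%, 11.2%, 10.6%, 8.63% and 6.44% in the same order. Sall4 stayed below a 2-fold change in every genotype, and its mean D6 level lay between 72.5% and 119% of D0.

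The naive pluripotency genes, among them the transcription factors Esrrb, Klf4 and Zfp42, were read beside the members. All 16 were called lower in WT, DKO and Tet1-/-, 14 in TKO and 12 in Tet2-/-, with median log2 changes of -2.85, -2.86, -2.78, -2.06 and -1.44. The matching shares of all genes called lower were 13.3%, 10.6%, 11.2%, 8.63% and 6.44%. At D6 6 of the 16 were higher in Tet2-/- than in WT, beside 4.81% of all genes. Zfp42 fell less in Tet2-/- than in WT (interaction 2.06 ± 0.54, edgeR adjusted p = 0.0182), from a D0 level of 493 and 468 CPM in Tet2-/- against 804 to 955 CPM in WT. Of 6 formative and primed epiblast genes, which mark the next embryonic stage, 5 rose in WT, Tet1-/-, Tet2-/- and DKO and 4 in TKO, with a median log2 change of 3.53 in Tet2-/- and 2.43 in WT. Shares of all genes called higher were 20.7%, 19.9%, 12.7%, 18.6% and 16.8% in that order.

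**Figure D4:**
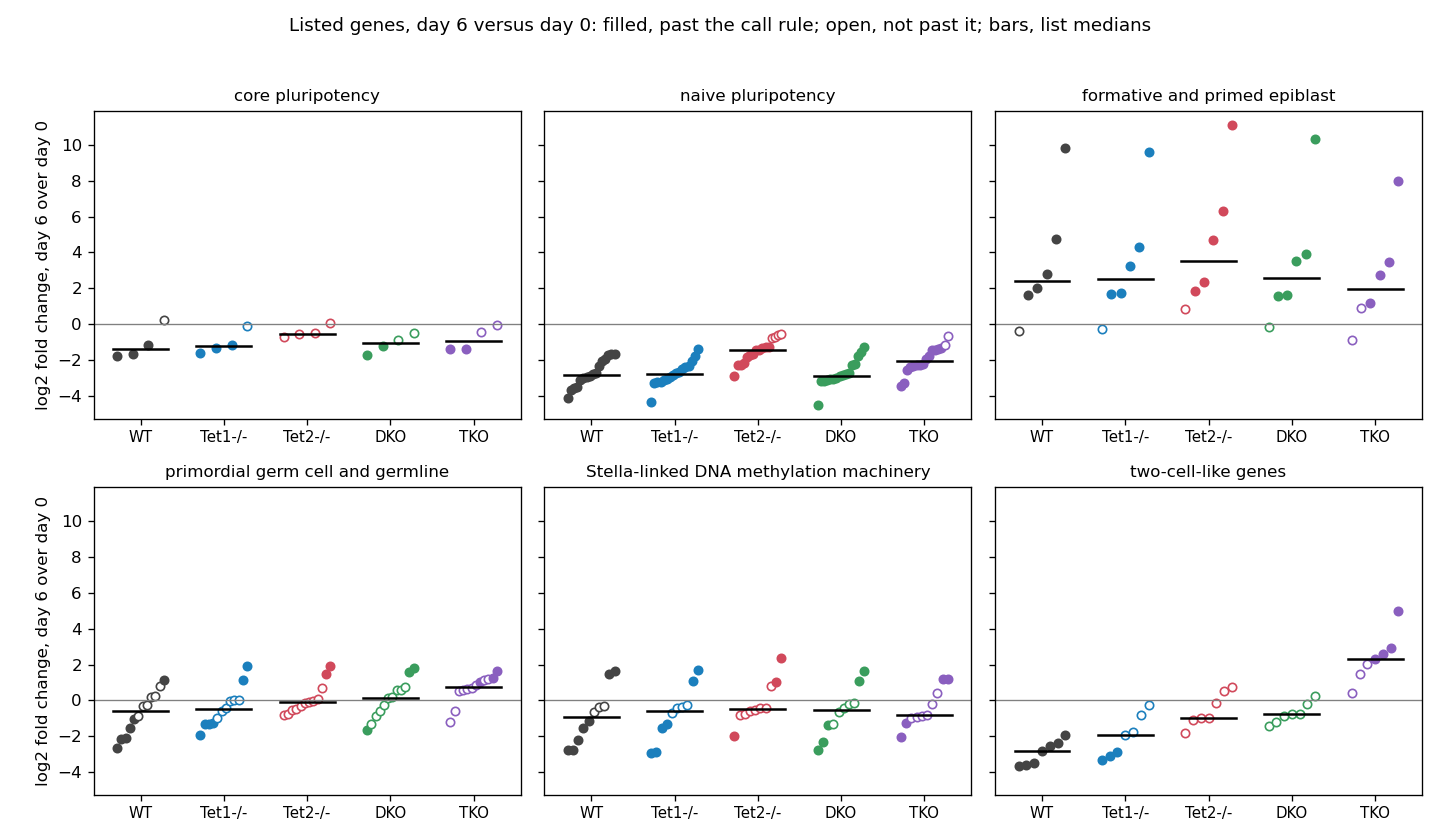
Log2 fold change of D6 over D0 for the genes of 6 lists, by genotype (each point a gene, filled where called; black bars, list medians). Naive genes lie below 0 in every genotype and least so in Tet2-/-, while the median of the early cleavage genes lies below 0 in WT and above it in TKO.

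Neighbouring genes were read beside each member. Morc1, a gene of germline transposon silencing that lies 111.5 kb downstream of Dppa2, fell in every genotype, with log2 changes of -3.69 (WT), -3.51 (Tet1-/-), -3.12 (DKO), -2.18 (Tet2-/-) and -1.30 (TKO), while Dzip3 beyond it changed by 0.15 to 0.82 without a call. In Tet2-/- Morc1 thus fell to 22.1% of its D0 level where Dppa4 stayed at 99.4%. On chromosome 9 Ooep, a gene of the maternal complex of the egg, fell to 14.3% of its D0 level in WT and 61.8% in Tet2-/-, beside 30.3% and 55.0% for Dppa5a. Of the 8 tested genes listed with Dppa5a on chromosome 9, 5 were called lower and 2 higher in WT, beside 13.3% and 20.7% of all genes. In Tet2-/- 2 were called lower and 1 higher, beside 6.44% and 12.7%, so the higher calls lay near the share of all genes.

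Of the 9 genes listed near Dppa3, 7 were tested. Called higher and lower were 1 and 2 in WT and in Tet1-/-, 2 and 1 in DKO, 1 and 1 in TKO, and none in Tet2-/-. Over all genes 12.7% to 20.7% were called higher and 6.44% to 13.3% lower in a genotype. Foxj2 went the way of Dppa3, from 6.09 to 7.47 CPM at D0 to 18.5 to 29.3 CPM at D6 in WT. In Tet2-/- it went from 7.34 and 6.63 CPM to 14.6 and 13.1 CPM. Gdf3, a TGF-beta family ligand, fell in WT (-2.07), Tet1-/- (-1.39) and DKO (-1.54) and was 2.12 ± 0.55 higher in Tet2-/- than in WT at D6 (edgeR adjusted p = 0.0188), the opposite direction to Dppa3. Slc2a3, a glucose transporter, rose in DKO only by the call rule (1.16), with values from 0.12 to 0.94 in the other genotypes.

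Dppa3 is tied to DNA methylation through Uhrf1, so the methylation machinery was read beside it. Of its 10 genes, which include Tet1, Tet2 and Tet3, 2 were called higher and 5 lower in WT from D0 to D6, and 2 higher and 2 lower in TKO. Over all genes 20.7% were called higher and 13.3% lower in WT, and 16.8% and 8.63% in TKO, so the higher calls lay near the share of all genes. The Tet genes, which are the edited genes of the knockouts, gave 1 of the 2 higher calls in WT and in TKO (Tet3) and 2 of the 5 lower calls in WT (Tet1 and Tet2). Uhrf1 itself went to between 57.0% and 68.4% of its D0 level in all genotypes without a 2-fold change, and at D6 it was 0.58 ± 0.11 higher in Tet2-/- than in WT (edgeR adjusted p = 0.00656), again below 2-fold. Dnmt3l, the cofactor of the de novo methyltransferases, fell to 22.0% of its D0 level in WT and stood at 132% in TKO, an interaction of 2.59 ± 0.48 (edgeR adjusted p = 0.00671), having been lower in TKO than in WT at D0 (-1.14 ± 0.11, edgeR adjusted p = 3.55e-04). Dnmt3b was called higher at D6 in every genotype, by 1.19 to 2.34 on the log2 scale. The TKO value of 1.19 came from clone TKO_8.4, where Dnmt3b went from 149 to 609.7 CPM, whereas in clone TKO_8.12 it went from 203 to 189 CPM.

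Of the genes known as targets of Dppa2 and Dppa4, Syce1, a protein of the synaptonemal complex, fell in WT (-3.21), Tet1-/- (-2.54) and DKO (-1.86). Its change in Tet2-/- (-1.20) and TKO (-0.81) was not called, and it fell less than in WT in Tet2-/- (2.01 ± 0.66, edgeR adjusted p = 0.0444) and TKO (2.4 ± 0.67, edgeR adjusted p = 0.0390). The TKO clones moved in opposite directions, from 2.80 to 4.15 CPM in clone TKO_8.4 and from 12 to 4.34 CPM in clone TKO_8.12, so the low D0 level of clone TKO_8.4 enters that term. Nkx2-5, a cardiac transcription factor, changed by -0.27 to 1.09 without a call.

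The cleavage-state genes are a second known target group. Of the 7 that could be tested over both days, 7 fell in WT and 3 in Tet1-/-, none in Tet2-/- or DKO, and 4 rose in TKO. List medians were -2.82 (WT), -1.92 (Tet1-/-), -0.96 (Tet2-/-), -0.77 (DKO) and 2.33 (TKO). Over all genes 13.3%, 11.2%, 6.44% and 10.6% fell in WT, Tet1-/-, Tet2-/- and DKO, and 16.8% rose in TKO. At D0 5 of 7 were lower in Tet2-/- than in WT and 3 of 7 in TKO, beside 2.37% and 2.12% of all genes, and Dppa2 and Dppa4 were not called there. Zscan4d stood at 0.97, 1.15 and 1.90 CPM in WT and at 0.30 and 0.44 CPM in Tet2-/- at D0. In TKO at D6 it was 1.81 CPM in clone TKO_8.4 and 0.20 CPM in clone TKO_8.12, so the higher TKO level came from clone TKO_8.4, whereas Dppa3 was higher in clone TKO_8.12. These genes have near-identical copies whose counts are uncertain, and Zscan4b was at 0 in both TKO libraries at D0. Tcstv1 stood at 0.125 and 0 CPM in TKO at D0. In Tet2-/- at D0 Zscan4b stood at 0.085 and 0.029 CPM and Tcstv1 at 0.043 and 0.029 CPM. Such levels lie near or below the detection limit of 3 counts, so a fall from them could hardly be measured, and a rise from them starts at that limit.

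Among 12 germline genes 5 fell and 1 rose in WT, and none fell and 3 rose in TKO, beside 13.3% and 20.7% of all genes in WT and 8.63% and 16.8% in TKO, among them Prdm1 (1.24), a specifier of primordial germ cells that also rose in Tet1-/-, Tet2-/- and DKO. Dazl, an RNA-binding protein of germ cells, fell in WT (-2.16) and Tet1-/- (-1.93) and changed by 1.18 without a call in TKO (interaction 3.35 ± 0.70, edgeR adjusted p = 0.0125), where it was already lower than in WT at D0 (-1.42 ± 0.31, edgeR adjusted p = 0.0184). In Tet2-/- against WT at D6 2 of the 12 were higher, Nanos3 (2.47 ± 0.79, edgeR adjusted p = 0.0403) and the germ cell helicase Ddx4 (1.24 ± 0.34, edgeR adjusted p = 0.0221), and Ifitm3 was lower (-1.88 ± 0.33, edgeR adjusted p = 0.00560), as Dppa3 was. At D0 4 of the 12 were lower in Tet2-/- than in WT, Ifitm3 among them, beside 2.37% of all genes. Of the maternal complex and its KH-domain relatives 4 of 9 could be tested, with 2 lower and 1 higher in WT, 3 lower and 1 higher in Tet1-/- and in DKO, 2 lower in Tet2-/- and 1 lower and 1 higher in TKO. Over all genes 6.44% to 13.3% were called lower and 12.7% to 20.7% higher in a genotype, so 1 higher call among 4 genes is near that share.

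Over the 24 libraries, the genes with the smallest root mean square difference from each member, in centred log2 CPM among 15639 genes, were 2410141K09Rik (0.34), C77370 (0.40) and 2410007B07Rik (0.41) for Dppa2, EU599041, Gm13154 and Gm13242 (0.25, 0.25 and 0.26) for Dppa4, and Ddx43, Triml2 and Gm2381 (0.36, 0.36 and 0.38) for Dppa5a. Ddx43, a germline RNA helicase, lies 27.6 kb from Dppa5a. By the same measure Dppa4 ranked 11th for Dppa5a (0.41) and Dppa2's nearest member was Dppa4 at rank 32 (0.56). The ranks were not mutual, as Dppa5a ranked 121st and Dppa2 1872nd for Dppa4, and Dppa2 ranked 474th for Dppa5a. The measure counts the size of a change as well as its shape. The members' own root mean squares were 1.25 (Dppa2), 0.73 (Dppa4) and 0.90 (Dppa5a), so a low rank need not mean an unlike pattern. Dppa3 had no close partner: its nearest genes Got1l1, Sepp1 and Dmgdh differed by 0.72 to 0.84, and the other members ranked between 14079 and 15398. The libraries share genotype and day, so these are descriptions of pattern.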

How the data were processed

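Poly(A) RNA was sequenced paired-end in 12 D0 and 12 D6 libraries. Per the labels and the submitters' processing notes, the authors aligned reads with STAR 2.5.1 to mm9. The deposited values are raw counts per gene, 1 table a day. The counting tool is not clear from the sources used here and its strand setting is not given. Spike-in RNA was not analysed here.

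Where a symbol had several lines only its first was analysed. Dppa4 has 2 lines, the second 1.28 to 1.36 times the first. Counts were tested with edgeR 4.0.16 in R 4.3.3 (quasi-likelihood test, TMM, filterByExpr with a minimum count of 10, Benjamini-Hochberg over all genes). Changes over days and interactions used all 24 libraries (15639 genes), and comparisons within a day its 12 libraries (14456 genes at D0, 15435 at D6). TMM factors ranged from 0.918 to 1.10. Calls required an adjusted p under 0.05 and a change over 2-fold. Levels are CPM on TMM-scaled totals, and per-kilobase levels used the longest annotated transcript. Pattern likeness used log2 CPM with a pseudocount of 1. On simulated counts, 100% (D0), 90% (D6) and 98% (both days) of 200 genes changed by 2 on the log2 scale were recovered, with 7, 6 and 3 false calls. The changed genes lay above about 1 CPM in WT. The change was placed in Tet2-/- within a day and in WT at D6 over days. Interactions, day changes in the knockouts and levels as low as Dppa3 in Tet2-/- were not simulated, so these shares do not describe them.

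Clone names in the labels pair the days for 11 clones. Deviations of the same clone on the 2 days from their group means correlated at r = 0.055 to 0.155, and the clone was used as a block in an alternative. DESeq2 1.42.0, other scalings, filters, group choices and left-out libraries were the other alternatives, and the second line of Dppa4 and the omission of clone TKO_8.12 were added after seeing the data. The members and gene lists were chosen with earlier results of these data known, the named genes being the members, genes of these lists and the 3 genes nearest each member in pattern. The count floor of 3 covers counting error only. Clones are the replicates, so the intervals and the p-values both rest on the spread between clones, fitted jointly over all groups. Outside the alternative with the clone as a block, the libraries of a clone on the 2 days were treated as independent.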

Additional observations from a re-analysis of the deposited data

Results flagged for a closer look

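The change of Dppa2 from D0 to D6 differed between Tet2-/- and WT, with an interaction of 2.97 ± 0.65 on the log2 scale (edgeR adjusted p = 0.00805). It stands here because the difference between the genotypes' changes was itself tested and passed both thresholds. Dppa2 was lower at D6 in both Tet2-/- clones and in all 3 WT clones, at 66.4% and 86.3% of D0 in Tet2-/- and 6.20% to 15% in WT. The change of Dppa4 differed in the same test by 1.87 ± 0.47 (edgeR adjusted p = 0.0141), with 99.4% of D0 kept in both Tet2-/- clones and 19% to 41.2% in WT.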

How the results depend on the processing

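Precision was limited by 2 or 3 clones a group and, for Dppa3, by counts as low as 8. With library totals in place of TMM the median log2 change of all genes from D0 to D6 moved to between 0.14 and 0.21, and calls became 3531 higher and 1168 lower in DKO (2904 and 1660 with TMM) and 3124 and 950 in TKO (2626 and 1350). Dppa2 in TKO over days then missed the threshold (-1.15), as it did without both libraries of clone TKO_8.12 (-0.97). The near-zero Dppa4 change in Tet2-/- turned positive by DESeq2 (0.0038), with library totals (0.13), with no filter (0.0082), with only the 2 groups (0.016), with RLE factors (0.0036) and without both libraries of clone TKO_8.12 (0.0079). Dppa3 missed the threshold with only the 2 groups in Tet2-/- against TKO at D0 (-4.05) and in TKO over days (3.01). The replicate number, which is only a number (r of deviations -0.264 to 0.242), used as a replicate block ended the calls of Dppa3 in Tet2-/- against DKO (-3.66) and WT (-2.66) at D6, and gave 2 calls of Tet2-/- against the other knockouts at D0 and 1 at D6, against 1 and 2 without it. With the clone as a replicate block the interaction calls were 6 in place of 2, with no call lost. DESeq2 gave 4 interaction calls and 5 calls against WT at D6 in place of 3. With only the 2 groups there was 1 call against WT at D0 in place of 0 and 2 calls of Tet2-/- against the other knockouts in place of 1, where that against TKO was lost and those against DKO (-2.70) and Tet1-/- (-1.45) were gained. The cause of these changes was not tested.

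Leaving out single libraries, the calls ranged from 0 to 6 for the interaction, 0 to 2 against WT at D0, 0 to 7 against WT at D6, and 0 to 2 at D0 and 0 to 4 at D6 for Tet2-/- against the other knockouts. Log2 values for Dppa2 ranged from -1.81 to -1.30 in DKO and -1.61 to -0.997 in TKO over days, 2.72 to 3.65 for the Tet2-/- interaction, 2.56 to 3.48 for Tet2-/- against WT at D6, and at D0 from -0.29 to 0.32 for Tet2-/- against TKO and -0.50 to 0.12 for TKO against WT. Those for Dppa3 ranged from 1.67 to 2.35 in Tet1-/- and 1.41 to 6.06 in TKO over days, -0.47 to 1.04 for the DKO interaction, -0.19 to 1.32 for DKO and -0.98 to 3.00 for TKO against WT at D0, -0.25 to 0.83 for Tet1-/- and -3.22 to -2.18 for Tet2-/- against WT at D6, -3.99 to -3.23 for Tet2-/- against DKO at D6, and -4.97 to -0.99 at D0 and -7.27 to -4.95 at D6 for Tet2-/- against TKO. Those for Dppa4 ranged from -0.11 to 0.091 in Tet2-/- over days, 1.69 to 2.31 for its interaction, 1.66 to 2.26 against WT at D6 and -0.15 to 0.034 against WT at D0, and at D0 from -0.028 to 0.083 for Tet1-/- against WT, -0.18 to 0.0048 for Tet2-/- against Tet1-/-, -0.14 to 0.22 for Tet2-/- against TKO and -0.27 to 0.090 for TKO against WT. Those for Dppa5a ranged from -0.20 to 1.18 for the Tet1-/- interaction and, at D6, from -0.044 to 1.37 for Tet1-/- against WT and -0.080 to 0.56 for Tet2-/- against Tet1-/-. The ranges that cross 0 belong to differences that were not called.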
